A study of Mus musculus with 8 samples.

Results

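Chromatin accessibility at 34 genes of the lysosome and of the vacuolar ATPase was examined in mouse alveolar macrophages (AMs) that lack retinoid X receptors. The genes were given as a list, and their accessible regions were those that overlapped a gene body or its 10 kb flanks and had a peak in at least 2 libraries. This left 221 regions of the 72711 in the series, of which 66 were promoter regions, with the strongest summit within 1 kb of a transcription start site (TSS), and 155 were distal. ATAC-seq, which reads open chromatin from the places where Tn5 transposase can reach the DNA, had been run on sorted AMs washed from the lungs of 9-week-old mice of C57BL/6J background. The KO group was 4 libraries of genotype CD11cCre+ Rxrabfl/fl (replicates 1_2, 1_3, 2 and 3) and the WT group 4 libraries of genotype CD11cCre- Rxrabfl/fl (replicates 1_2, 1_3, 3 and 4), so that both groups carried the floxed Rxra and Rxrb alleles, and the labels name no treatment. Values per library are given in this order throughout. Cre expressed from the CD11c (Itgax) promoter deletes the floxed alleles in AMs and in any other cell that expresses CD11c. The study used mice of both sexes. The sources used here do not give the sex or the number of mice behind each library, nor whether 1_2 and 1_3 came from separate animals, so p-values measure only the spread between libraries.

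The lysosome is the acidic compartment in which macrophages break down what they take up, and AMs are known for clearing the lipids and proteins of pulmonary surfactant in this way. The vacuolar ATPase (V-ATPase) acidifies it: the V1 sector hydrolyses ATP in the cytosol, and the V0 sector carries protons through the membrane. Hydrolases degrade sugars, lipids and proteins at low pH, membrane proteins protect and shape the organelle, and the transcription factors TFEB and MITF bind E-box sequences at the promoters of many of these genes, where the preferred site is called the CLEAR element. RXRs pair with other nuclear receptors on direct repeats of AGGTCA, and the repeat with 1 base between its copies (DR1) is the site used with PPARs.

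The 8 lists held 60363 to 72484 peaks, and the genome-wide background worked back from the peak statistics, a measure of relative depth, was 1.12 to 2.26 tags (read ends) per 200 bp. It was highest in WT replicate 1_3 and lowest in KO replicate 3. Of 10 AM marker genes, 8 had a promoter peak in all 8 libraries, and Chil3 and Krt79 had none in any. No promoter peak was listed for the T cell (Cd3e, Cd3d), B cell (Cd79a), neutrophil (Ly6g, Retnlg) and fibroblast (Col1a2, Mfap4) markers or for Sftpc, Sftpb and Cdh5, whereas Epcam, Pecam1 and Ly6c2 had one in all 8 libraries and Ccr2 in KO replicate 3 (17 tags) and WT replicate 3 (15 tags). In Rxra, 1 of 16 regions, at chr2:27744546-27744950, had a peak in 4 of 4 WT libraries (38, 46, 38 and 42 tags) and in no KO library. Another, at chr2:27693199-27693452, had one in 4 WT libraries and in KO replicate 1_2 (36 tags). The first pattern was seen at 0.968% of all distal regions and 0.302% of all promoters. Whether either region covers the floxed sequence was not examined, so this is a weak check of the genotype labels. Of the 16, 12 had a peak in all 8 libraries, and neither of 2 regions in Rxrb was listed in 1 genotype alone.

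The sequences below come from RefSeq's GRCm38 (mm10) genome and are shown because the results return to them. The first set holds the exact CLEAR core, TCACGTGA, which reads the same on both strands. It was searched within 100 bases of each summit, and it contains the shorter E-box CACGTG. The core was present at 4 of the 66 promoter regions (6.06%), beside 1.0% of all 16202 promoter regions, and at none of the 155 distal regions, beside 0.269% of all 56509. Each site is printed in 30 bases on the strand of the named gene, with the core in capitals.
Lamp1, 59 bases past the TSS (chr8:13159209-13159238, plus strand): agaccctcggcTCACGTGAccggcgggcgc
Lamp1, 86 bases past the TSS (chr8:13159236-13159265, plus strand): cgcggcactgcTCACGTGAcaggcgctgcc
Atp6v0d1, 21 bases before the TSS (chr8:105566050-105566079, minus strand): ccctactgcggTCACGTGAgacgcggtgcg
Atp6v0e, 14 bases before an internal TSS (chr17:26676387-26676416, plus strand): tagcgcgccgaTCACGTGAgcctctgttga
Amdhd2 promoter beside Atp6v0c (chr17:24163739-24163768, minus strand): tcagctgagagTCACGTGAtgcgacctggc
The Lamp1 promoter region was the member region with 2 such cores, both inside an exon. The region counted for Atp6v0c lies at the TSS of its neighbour Amdhd2, 5.93 kb from the start of Atp6v0c, and it also held 2 further E-boxes.

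The E-box alone was at 13 of 66 promoter regions (19.7%), beside 7.43% of all promoter regions, and at 9 of 155 distal regions (5.81%), beside 4.75%. The related M-box TCATGTGA was at 4 promoter regions (6.06%, beside 0.747%), those of Atp6v1f, Cd63, Ppt1 and Tpp1. Sites for the macrophage factor PU.1 (GAGGAAGT) were at 14.2% of the distal regions, beside 12.5% of all distal regions, and AP-1 sites (TGANTCA) at 14.2%, beside 13.7%. DR1, with at most 2 mismatches, was at 9 distal regions (5.81%), beside 4.73%, and at 1 promoter region, that of Neu1. All patterns were searched on both strands, and a match is a description of the letters only. The median GC content within 100 bases of the summit was 62.7% at promoter regions, beside 63.2% for all promoters, and 50.2% at distal regions, beside 49.2%.

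Every one of the 34 genes had at least 1 region at a TSS of its own. Mitf had the most regions (21), followed by Atp6v0d1 and Scarb2 (14 each), Psap (12), Tfeb (11), Hexa and Manba (10 each), Npc2 and Atp6v1a (9 each), Atp6v0a1 and Atp6v1c1 (8 each) and Atp6v0c and Ppt1 (7 each). Atp6v1b2, Atp6v1g1, Cd68 and Grn had 6, Atp6v0e, Man2b1 and Cd63 had 5, and Lamp1, Atp6v1e1, Gusb, Neu1, Mcoln1 and Tpp1 had 4. Atp6v0b, Atp6v1d, Asah1 and Gaa had 3, Atp6v1f and Glb1 had 2, and Atp6v1h and Smpd1 had 1, at the promoter. Gene length and region number did not run in parallel throughout: Atp6v1h spans 92.5 kb and had 1 region, whereas Atp6v0d1 spans 41.6 kb and had 14. Of the 155 distal regions, 110 had their summit in an intron, 37 between genes and 8 in an exon.

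**Figure D1:**
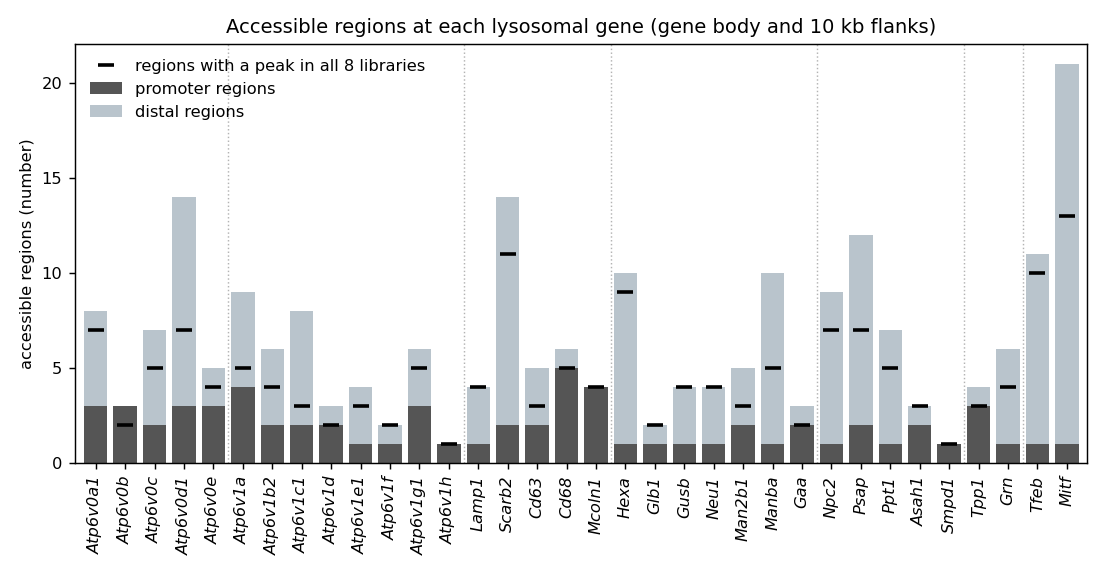
Number of accessible regions at each of the 34 genes, stacked as promoter and distal regions, with a dash at the number that had a peak in all 8 libraries and dotted lines between functional groups (V0, V1, membrane proteins, glycosidases, lipid enzymes and carriers, peptidase and progranulin, transcription factors). Mitf stands highest with 21 regions, 13 of them in all 8 libraries, while Atp6v1h and Smpd1 have 1 each.

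A peak in all 8 libraries was found at 58 of 66 promoter regions (87.9%), beside 81.9% of all promoter regions, and at 101 of 155 distal regions (65.2%), beside 60.6%. These 159 regions were compared between genotypes by their summit tags, the number of tags within the 200 bp that the peak caller piles up at a summit, so that every region is read over the same width. In each library the summit with the most tags in the region was taken, so the 200 bp can lie at different places in different libraries. Tags were scaled to the median region of each library. The median level was 138 scaled tags at the promoter regions, beside 114 for all promoters, and 83.0 at the distal regions, beside 56.5. The strongest promoter was that of Npc2 (chr12:84772743-84773424), which encodes the soluble cholesterol carrier of the lysosome. It held 541, 575, 581 and 578 scaled tags in KO, and 543, 427, 500.2 and 636 in WT. The groups overlapped, with a log2 difference (KO minus WT) of 0.13 ± 0.08 (SE) and an adjusted p of 0.338. The strongest distal region was an intronic one of Scarb2 (chr5:92486644-92487177), the gene for LIMP-2, which carries glucocerebrosidase to lysosomes. It held 321, 311, 294 and 314 scaled tags in KO and 305, 298, 334 and 327 in WT, a log2 difference of -0.03 ± 0.08 (adjusted p = 0.853).

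Few of the regions were called as different in tags, and a region that was not called may still differ. Of the 159, 144 did not pass the test (limma, adjusted p under 0.05 over all 47499 regions with a peak in all 8 libraries), 6 fell in KO and 9 rose. All 6 that fell were distal: they were 6 of 101 distal regions (5.94%), where 8.7% of all distal regions fell. No promoter region fell, where 2.7% of all promoters did. Of the 9 that rose, 6 were promoter regions, or 10.3% of the 58 tested beside 6.85% of all promoters, and 3 were distal, or 2.97% beside 5.41%. These shares lie near those of the whole series, and the members are not set apart by them. The median log2 difference was 0.07 over the promoter regions, beside 0.09 over all promoters, and 0.01 over the distal regions, beside 0.01. The groups of libraries did not overlap at 4 promoter regions (6.9%, beside 14.1% of all promoters) and 7 distal regions (6.93%, beside 17% of all distal regions). In bulk cells, a region open in fewer cells and a region less open in each cell cannot be told apart.

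The calls depended on the scaling. Under quantile normalisation 8 regions fell, 1 of them a promoter region, 5 rose, and 11 of the 15 calls were kept. Scaled to background tags, none of the 159 passed, and the smallest adjusted p among the 15 was 0.0532. Across the whole series the same scaling called 1988 regions as lower and 575 as higher, against 3337 and 2759. These were 5.21% (lower) and 1.48% (higher) of all distal regions tested, and 1.53% and 0.513% of all promoters tested. Leaving out 1 library at a time gave 2 to 5 regions that fell and 3 to 14 that rose. Over the whole series the same fits called 2624 to 3182 regions as lower and 1823 to 3269 as higher, so the calls shifted there too. A like number did not mean the same regions: without WT replicate 1_3, 5 regions fell, and 2 of them were among the original 6. The number that fell moved by over 1.5 times without KO replicate 1_2 (3 regions), 2 (3) or 3 (2), or WT replicate 3 (3) or 4 (2). The number that rose did so whichever library was left out: 4 without KO replicate 1_2 or 1_3, 3 without KO replicate 2 or 3 or without WT replicate 1_2, 1_3 or 3, and 14 without WT replicate 4. The direction of all 15 was the same in each of the 17 alternatives, and 2 of them, upstream of Atp6v1g1 and in an Npc2 intron, passed in all 8 fits that left out a library.

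**Figure D2:**
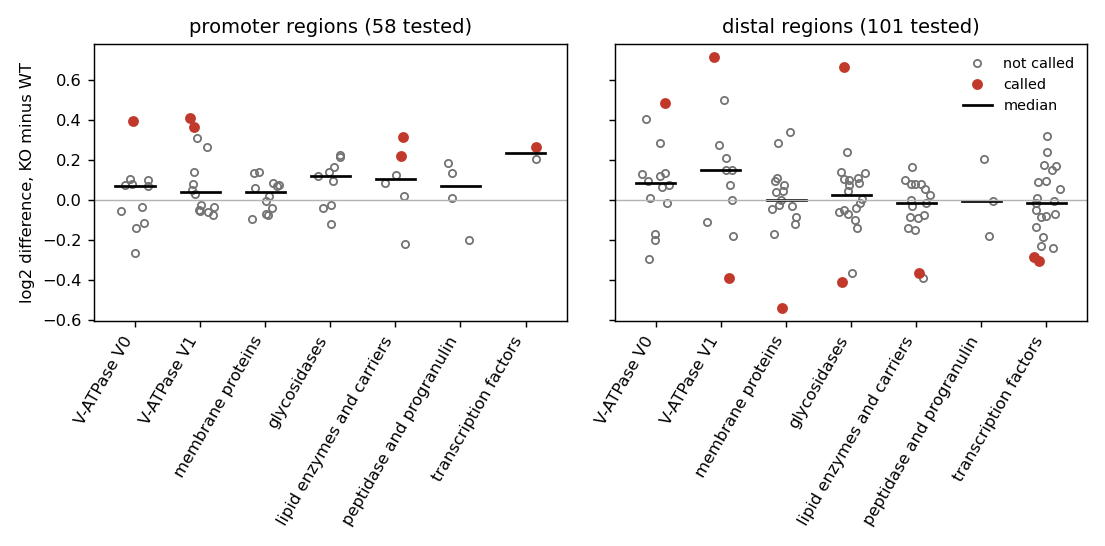
Log2 difference in scaled summit tags (KO minus WT) of the 58 promoter regions (left) and 101 distal regions (right) with a peak in all 8 libraries, by functional group; each circle is a region, filled where called, and the line is the group's median. The 6 called promoter regions lie above 0, between 0.22 and 0.41, and the 9 called distal regions lie between -0.54 and 0.72.

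The V-ATPase genes held 76 regions. Counts for each functional group pool promoter and distal regions and are read against the whole series, where 7.03% of regions fell and 5.81% rose, so that 1 to 3 calls among 23 to 29 regions do not set a group apart. Of the 25 tested at the V0 genes, 2 rose and none fell, and of the 25 tested at the V1 genes, 3 rose and 1 fell. The largest change of the 159 was at an intergenic region 3.62 kb before the start of Atp6v1g1 (chr4:63541033-63541493), the gene for a stalk subunit of V1. It held 41.3, 40.9, 40.0 and 45.7 scaled tags in KO, and 30.5, 23.5, 24.3 and 24.2 in WT. Every KO library was above every WT library. The region rose by 1.65-fold in KO (log2 difference 0.72 ± 0.18, adjusted p = 0.00354), and its adjusted p was 0.00311 to 0.0167 with 1 library left out. The 201 bases around its summit (chr4:63541055-63541255, plus strand) are printed with the PU.1 match in capitals, since this was the firmest of the calls.
Atp6v1g1 upstream region: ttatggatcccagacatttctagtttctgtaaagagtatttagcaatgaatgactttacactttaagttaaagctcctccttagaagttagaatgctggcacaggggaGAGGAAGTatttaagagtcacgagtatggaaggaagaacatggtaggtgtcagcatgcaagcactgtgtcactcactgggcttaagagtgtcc

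On the other side of the same gene, 9.22 kb from its start and past its 3′ end (chr4:63553691-63554230), an intergenic region fell. It held 102, 66.2, 75.0 and 103 scaled tags in KO and 97.2, 114, 119 and 116 in WT. The groups overlapped through WT replicate 1_2, and the log2 difference was -0.39 ± 0.12 (adjusted p = 0.0304), a call kept in 3 of 8 fits with a library left out. The promoter of Atp6v1g1 itself had a log2 difference of 0.14 (adjusted p = 0.514).

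An intronic region of Atp6v0d1, the gene for the subunit that links V0 to the stalk of V1, rose 13.0 kb from the start (chr8:105552751-105553238). It held 67.2, 65.2, 60.3 and 48.0 scaled tags in KO, and 50.8, 37.6, 38.9 and 44.5 in WT. KO replicate 3 lay within the WT range (log2 difference 0.48 ± 0.16, adjusted p = 0.0305), and 3 of 8 fits with a library left out kept the call. The Atp6v0d1 promoter, which holds a CLEAR core, had 221, 237, 216 and 224 scaled tags in KO and 228, 195, 199 and 229 in WT, with overlapping groups (0.08 ± 0.09, adjusted p = 0.602).

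The promoter of Atp6v1b2, the gene for a B subunit of the catalytic V1 ring, rose (chr8:69088275-69088925). It held 93.1, 75.3, 116 and 90.7 scaled tags in KO and 67.2, 66.7, 76.4 and 77.2 in WT. KO replicate 1_3 lay within the WT range (0.37 ± 0.13, adjusted p = 0.0465), and 2 of 8 fits with a library left out kept the call.

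Both other V-ATPase calls were at promoters of neighbouring genes. The Amdhd2 promoter, whose CLEAR core is printed above, rose (chr17:24163432-24163962). It held 99.1, 95.5, 112 and 109 scaled tags in KO, and 67.2, 76.4, 77.3 and 96.4 in WT (0.40 ± 0.12, adjusted p = 0.0204). Only WT replicate 4 reached the KO range. The promoter of the noncoding gene 1100001I12Rik, at -1.69 kb from the start of Atp6v1c1 (chr15:38660042-38660393), rose too. It held 80.1, 73.2, 59.2 and 63.4 scaled tags in KO and 53.7, 51.1, 46.2 and 55.8 in WT, and the groups did not overlap (0.41 ± 0.14, adjusted p = 0.0468). Of 8 fits with a library left out, 5 kept the Amdhd2 call and 2 the 1100001I12Rik call, with adjusted p up to 0.0948 and 0.18. At the start of Atp6v1c1 itself, the gene for the C subunit of V1, the log2 difference was 0.31 (adjusted p = 0.101).

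The promoter of Atp6v1h, which encodes the H subunit of V1, lies at an internal TSS (chr1:5082894-5083666) and had 119, 113, 167 and 106 scaled tags in KO and 131, 148, 128 and 118 in WT (-0.07 ± 0.11, adjusted p = 0.729). The internal Atp6v0e promoter with a CLEAR core (chr17:26676213-26676874) had 60.2, 42.9, 53.5 and 59.9 in KO and 48.8, 46.6, 57.2 and 73.8 in WT (-0.05 ± 0.16, adjusted p = 0.868). In both, the groups overlapped. At the start of Atp6v0c, the gene for the proton-carrying c subunit, few libraries had a peak (chr17:24169405-24169792). One was listed in KO replicate 2 (75 tags), in WT replicates 1_3 (88) and 4 (57) and in no other library. Despite these tags, the peaks were on average at the 21.4th percentile of peak strength in their lists. The tags needed for a peak in the other libraries were not estimated here, so its absence there does not show closed chromatin.

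Of the 27 regions tested at genes of membrane proteins, 1 fell and none rose. It lies in an intron of Scarb2, 39.6 kb from the start (chr5:92467006-92467426). It held 29.4, 39.9, 34.4 and 27.9 scaled tags in KO, and 40.1, 59.2, 49.0 and 43.4 in WT. The groups lay apart by a narrow margin, between KO replicate 1_3 and WT replicate 1_2 (1.46-fold lower in KO, log2 difference -0.54 ± 0.17, adjusted p = 0.029), and 4 of 8 fits with a library left out kept the call. A second Scarb2 region, 41.2 kb from the start (chr5:92465478-92465902), had peaks of 31, 35, 33 and 25 tags in WT and of 15 tags in KO replicate 2, with no peak in the other KO libraries. Between these, at 40.7 kb, a region with a peak in all 8 libraries had a log2 difference of 0.04 (adjusted p = 0.918).

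The promoters of the other membrane protein genes had overlapping groups. Lamp1, an abundant glycoprotein of the lysosomal membrane, had 92.1, 81.3, 96.4 and 94.3 scaled tags in KO and 90.4, 81.6, 100.2 and 103 in WT at the promoter with both CLEAR cores (chr8:13158956-13159468; -0.04 ± 0.12, adjusted p = 0.861). Mcoln1, a calcium channel of the lysosome, had 70.2, 68.2, 72.7 and 65.8 in KO and 67.2, 74.9, 63.6 and 87.4 in WT (chr8:3500197-3501087; -0.07 ± 0.13, adjusted p = 0.771). Cd68, a macrophage glycoprotein of late endosomes, had 375, 349, 377 and 379 in KO and 379.7, 342, 425 and 409.7 in WT (chr11:69665962-69666573; -0.07 ± 0.08, adjusted p = 0.613). The Cd68 promoter was in the 96.7th percentile of peak strength, averaged over the libraries.

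Cd63, a tetraspanin of late endosomes, was the exception. Its region at an internal TSS, 8.83 kb from the annotated start (chr10:128909565-128909990), had peaks of 80, 74, 78 and 58 tags in KO. In WT, a peak was listed in replicate 3 alone, with 32 tags. The WT libraries without a peak would have needed an estimated 20 to 27 tags for one, given the local background, so the lists show that they lay below that. Among promoter regions, 1 of 66 (1.52%) had a peak in 4 KO libraries and at most 1 WT library, or in 3 and none, beside 0.346% of all promoters. No promoter region leaned to WT by the same rule, beside 1.7% of all. Both other regions inside Cd63 had a peak in all 8 libraries and were not called. The M-box match near the summit is printed in capitals (chr10:128909781-128909810, plus strand). It is a match of letters, and binding of TFEB or MITF was not measured. The same summit window also held an E-box and an AP-1 match.
Cd63 internal promoter: ctgttcccgtgTCACATGAgagagagaggg

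**Figure D3:**
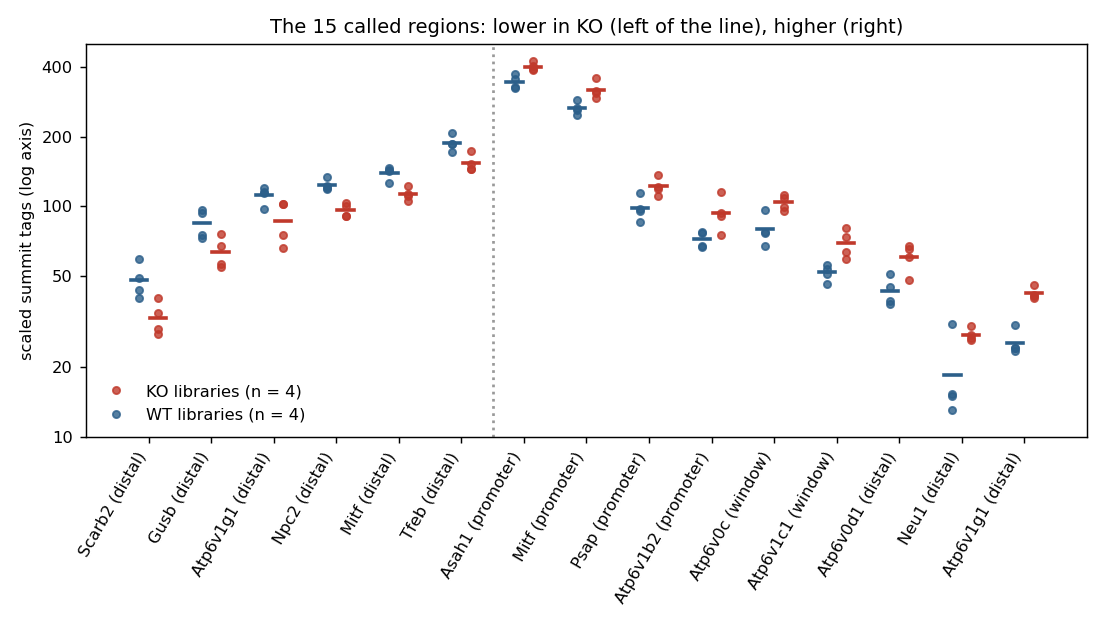
Scaled summit tags (log axis) in each library at the 15 called regions, ordered by log2 difference, with WT in blue and KO in red, a point per library and a line at the mean of 4. "Window" marks a promoter of a neighbouring gene. The KO and WT points overlap at 8 of the 15 regions; at the Atp6v1g1 region on the right the 4 KO libraries sit between 40.0 and 45.7, above the 4 WT libraries.

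Of the 29 regions tested at glycosidase genes, 1 fell and 1 rose. A region 24.3 kb from the start of Gusb, the gene for beta-glucuronidase, lies past its 3′ end in an intron of the neighbour Vkorc1l1 (chr5:129978572-129979026) and fell. It held 76.2, 67.2, 54.7 and 56.3 scaled tags in KO and 75.0, 93.5, 72.8 and 96.4 in WT. The groups overlapped, with KO replicate 1_2 above WT replicates 1_2 and 3 (-0.41 ± 0.14, adjusted p = 0.0358), and 4 of 8 fits with a library left out kept the call. A region 6.48 kb before Neu1, the gene for the lysosomal sialidase, lies in an intron of Slc44a4 (chr17:34924318-34924951) and rose. It held 26.4, 26.8, 27.6 and 30.2 scaled tags in KO and 13.1, 15.3, 15.1 and 31.0 in WT. WT replicate 4 was above all KO libraries (0.66 ± 0.22, adjusted p = 0.0339). Without it the adjusted p was 0.00158, and without any 1 of the other libraries the call was lost. The promoters of Hexa, Glb1, Gusb, Neu1, Man2b1, Manba and Gaa did not pass, with log2 differences from -0.04 (Manba) to 0.22 (Gaa) at the strongest promoter region of each gene.

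Lipid enzymes and carriers had 23 tested regions, of which 2 rose and 1 fell. The promoter of Psap, which encodes the precursor of the saposins that present sphingolipids to hydrolases, rose (chr10:60277446-60278003). It held 111, 122, 137 and 119 scaled tags in KO, and 97.2, 95.8, 85.6 and 114 in WT, where replicate 4 lay above the lowest KO library (0.32 ± 0.11, adjusted p = 0.0457). The promoter of Asah1, the gene for acid ceramidase, had 389 to 424 scaled tags in KO and 326 to 374 in WT, with no overlap (chr8:41374499-41375144; 0.22 ± 0.08, adjusted p = 0.0429). These calls were kept in 2 and 1 of 8 fits with a library left out. The promoters of Ppt1 and Smpd1, genes for a palmitoyl-protein thioesterase and for acid sphingomyelinase, had log2 differences of 0.08 and 0.02 (adjusted p = 0.712 and 0.913).

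Npc2 held both a distal region that fell and a region listed in WT alone. The first lies in an intron, 11.7 kb from the start (chr12:84761249-84762004). It held 103, 90.4, 90.7 and 100.2 scaled tags in KO and 118, 122, 120.4 and 134 in WT, with the lowest WT library above the highest KO library (1.29-fold lower in KO, -0.36 ± 0.11, adjusted p = 0.0153). It passed in all 8 fits with a library left out (adjusted p 0.0186 to 0.048). The second, intergenic and 22.3 kb from the start beyond the 3′ end (chr12:84750731-84751087), had peaks of 72, 74, 60 and 45 tags in WT, and no KO list held a peak. At the local background, of an estimated 9.19 to 15.2 tags, a KO library needed 22 to 32 tags for a peak. Regions on either side of it, 24.8 and 20.9 kb from the start, had a peak in all 8 libraries and log2 differences of 0.08 and 0.08 (adjusted p = 0.641 and 0.606).

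The Npc2 intron and the Tfeb region described next are those among the 15 calls that hold a DR1 match, and their windows of 201 bases are printed for that reason, with the match in capitals. The match has 2 mismatches in each. DR1 was at 6 of the 101 tested distal regions, and 2 of the 6 fell, beside 18.9% of all 1681 tested distal regions with a match. The other 4, at Atp6v0c, Lamp1, Neu1 and Mitf, were not called, and 6 regions are too few to compare the shares.
Npc2 intron (chr12:84761381-84761581, minus strand): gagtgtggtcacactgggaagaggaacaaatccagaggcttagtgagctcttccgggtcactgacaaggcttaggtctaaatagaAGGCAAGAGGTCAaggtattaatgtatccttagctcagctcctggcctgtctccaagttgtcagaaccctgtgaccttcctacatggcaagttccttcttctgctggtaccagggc
Tfeb intron (chr17:47760086-47760286, plus strand): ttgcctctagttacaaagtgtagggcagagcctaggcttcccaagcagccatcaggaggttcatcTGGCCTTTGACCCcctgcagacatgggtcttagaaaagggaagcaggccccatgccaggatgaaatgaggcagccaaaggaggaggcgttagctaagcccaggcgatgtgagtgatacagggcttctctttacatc

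Tpp1 and Grn, genes for a lysosomal peptidase and for progranulin, had 7 tested regions and no call. Their promoters had log2 differences of 0.01 and 0.19 (adjusted p = 0.971 and 0.158).

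The genes of the transcription factors Tfeb and Mitf held 32 regions, of which 23 were tested, 2 fell and 1 rose. An intronic region of Tfeb, 23.2 kb from the start (chr17:47759690-47760428), fell, with 145 to 173 scaled tags in KO and 172 to 207 in WT (-0.29 ± 0.09, adjusted p = 0.0318). KO replicate 2 lay just above WT replicate 1_2, and 3 of 8 fits with a library left out kept the call. The other 8 distal Tfeb regions tested did not pass. The Tfeb promoter (chr17:47736816-47738609) had 169.7, 166, 156 and 181 scaled tags in KO and 148, 146, 129.5 and 159 in WT, an overlap of 1 WT with 1 KO library (0.21 ± 0.09, adjusted p = 0.143).

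At Mitf, the promoter rose, and of 12 tested distal regions 1 fell and 11 were not called, with log2 differences from -0.24 to 0.24. The promoter (chr6:97806737-97807392) held 315, 296, 309 and 361 scaled tags in KO and 289.7, 248, 262 and 265 in WT, with no overlap (0.26 ± 0.08, adjusted p = 0.0232). It passed in 5 of 8 fits with a library left out. An intronic region 189 kb from the start (chr6:97995551-97996191), 4.04 kb past an internal TSS, fell. It held 113, 123, 111 and 105 scaled tags in KO and 143, 144, 126 and 146 in WT, again with no overlap (-0.31 ± 0.10, adjusted p = 0.0346), and 2 of 8 such fits kept the call.

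Over the distal regions of Tfeb and Mitf together, the groups did not overlap at 4 of 21 tested, beside 17% of all distal regions. The called Mitf region was 1 of these 4, and the others were not called. At 3 further Mitf regions, which had no test of tags, peaks were listed mostly in WT libraries. The one 70.5 kb from the start (chr6:97877403-97877787) had weak peaks of 14, 22, 14 and 9 tags in WT and none in KO, where 7 to 10 tags would have been needed. The one at 60.3 kb (chr6:97867242-97867526) had no peak in WT replicate 3 or in KO and peaks of 32, 46 and 30 tags in the other WT libraries, where 14 to 19 tags would have been needed. The one at 33.4 kb (chr6:97840191-97840634) had 11, 27, 12 and 13 tags in WT and 15 in KO replicate 1_2 alone. All 3 are intronic.

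Regions listed in 4 WT and 0 KO libraries were thus those of Npc2 and Mitf, 2 of 155 distal regions (1.29%, beside 0.968% of all distal regions) and 0 of 66 promoter regions (beside 0.302%). No region was listed in 4 KO and 0 WT libraries (beside 0.352% of distal regions and 0.0494% of promoters). Allowing 1 library to depart, 5 distal regions leaned to WT (3.23%, beside 3.97%) and none to KO (beside 1.44%). Both windows of 201 bases are printed, with no motif marked, since they were the regions listed in every WT and no KO library. The Npc2 window ends in an AP-1 match, left in small letters, and the Mitf window held no match to the patterns searched.
Npc2, beyond the 3′ end (chr12:84750775-84750975, minus strand): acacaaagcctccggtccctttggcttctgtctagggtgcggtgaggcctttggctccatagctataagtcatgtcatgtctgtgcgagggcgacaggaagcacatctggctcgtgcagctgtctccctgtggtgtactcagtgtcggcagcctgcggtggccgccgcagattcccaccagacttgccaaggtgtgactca
Mitf intron (chr6:97877490-97877690, plus strand): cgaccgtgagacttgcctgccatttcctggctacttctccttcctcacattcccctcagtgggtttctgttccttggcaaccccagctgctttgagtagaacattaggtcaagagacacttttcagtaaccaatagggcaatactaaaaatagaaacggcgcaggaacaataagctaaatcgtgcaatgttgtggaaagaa

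**Figure D4:**
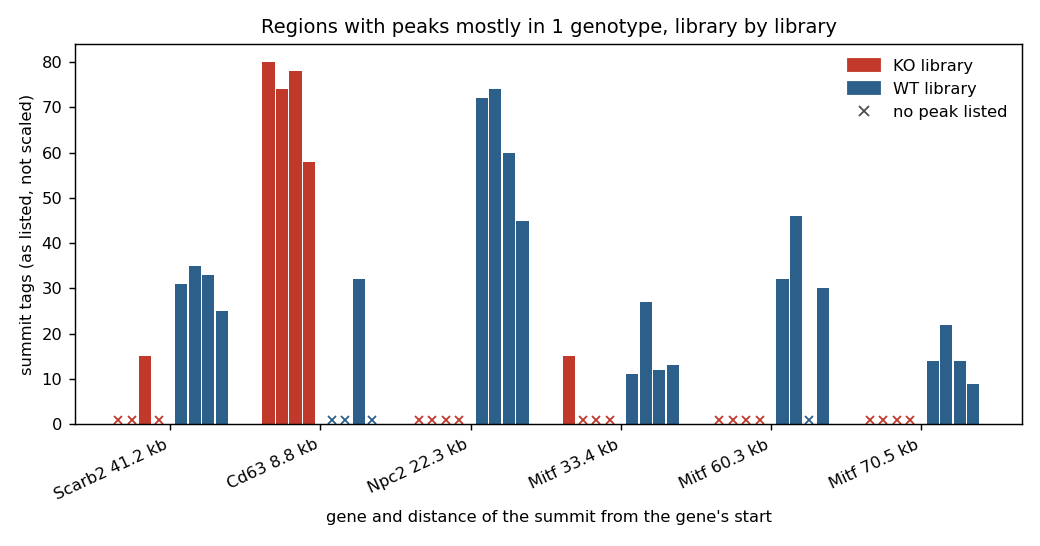
Summit tags as listed (not scaled) in each library at the 6 regions with peaks mostly in 1 genotype, named by gene and distance from its start; red bars are KO and blue bars WT libraries, in the order of the replicates, and a cross marks a library with no peak. At Npc2 the 4 WT libraries reach 45 to 74 tags with no KO peak, and at Cd63 the 4 KO libraries reach 58 to 80 tags with 1 WT peak of 32.

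**Figure D5:**
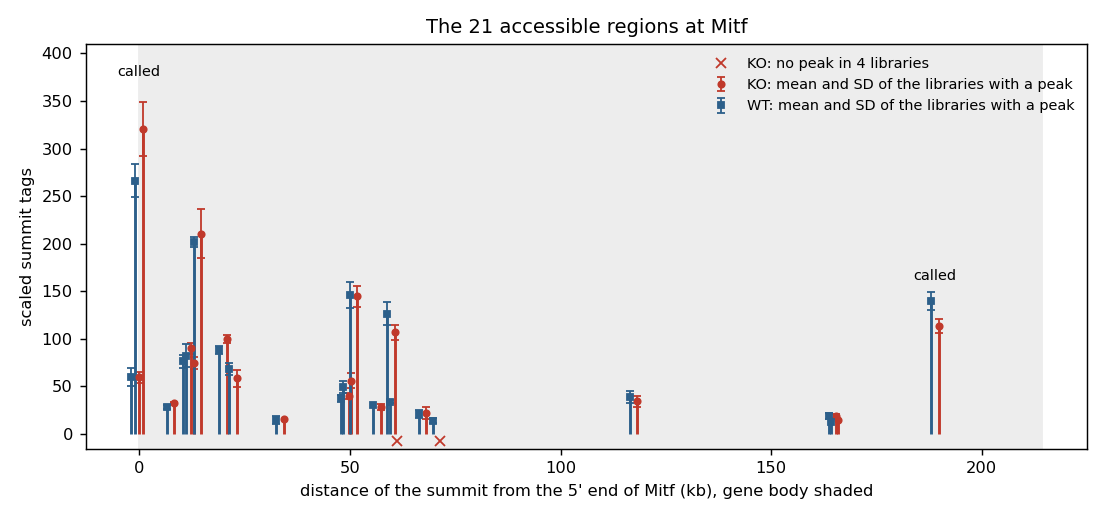
Mean scaled summit tags with SD at the 21 Mitf regions against the distance of the summit from the 5′ end of the gene (kb), over the libraries with a peak, in KO (red) and WT (blue), with crosses where no KO library had a peak. The promoter is higher in KO (320.3 against 266) and the called region at 189 kb lower (113 against 139.7).

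Over all members, a KO library had a peak at 94.3% ± 0.758 (SD, n = 4) of the promoter regions and a WT library at 95.5% ± 3.71. For all promoters the shares were 90.5% ± 1.09 and 93.4% ± 2.83. At distal regions the shares were 80.5% ± 2.38 in KO and 86.8% ± 6.35 in WT, beside 79.9% ± 2.69 and 84.6% ± 5.74 for all distal regions. By library, the distal share of the members was 77.4%, 83.2%, 80.6% and 80.6% in KO, and 84.5%, 96.1%, 84.5% and 81.9% in WT. WT replicate 1_3, the library with the most peaks and the highest background, stood highest; without it the difference of -6.29 percentage points was -3.17, and with lists cut to equal length -1.94. Of the 54 distal regions without a peak in some library, 25 had peaks in more WT than KO libraries (16.1% of the 155, beside 20.2% of all distal regions) and 8 in more KO libraries (5.16%, beside 11.1%), so more WT than KO lists held such regions across the series too. Beyond that, the share of list length in these values was not tested.

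Other genes of the pathway were counted in the same way. At 51 other genes, among them Lamp2, Npc1, Ctns, Lgmn and further V-ATPase, mTORC1-docking and mannose 6-phosphate sorting genes, 306 regions were found. Of 92 tested promoter regions, 2 fell (2.17%, beside 2.7% of all promoters) and 5 rose (5.43%, beside 6.85%). Of 135 tested distal regions, 11 fell (8.15%, beside 8.7% of all distal regions) and 3 rose (2.22%, beside 5.41%). None of these shares exceeded that of the whole series. The largest of these were distal regions at Galc, the gene for galactosylceramidase (log2 difference -1.23 ± 0.17, adjusted p = 6.383e-07), at Atp6v0a2 (-0.96 ± 0.15, adjusted p = 3.906e-06) and at the cystine exporter gene Ctns (-0.82 ± 0.11, adjusted p = 1.734e-07). Each exceeded any difference among the 34 genes, and they were named after their values were seen.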

How the data were processed

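Peak lists of 8 ATAC-seq libraries, 4 per genotype, were used. By the published methods, the authors used Cutadapt for trimming, Bowtie2 for alignment to mm10, Picard to mark duplicates and samtools to filter, and called peaks in each library with MACS3 at a q of 0.05, with reads shifted for the transposase and extended to 200 bp. The submitters' processing notes also name CASAVA and bcl2fastq. The deposited lists give a display score, the fold enrichment of each summit over its local background, and its −log10 p and −log10 q, all computed by the authors' peak caller. They hold no read counts. The score was not used.

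The number of tags at each summit was solved from its fold together with its −log10 p, and 100% of summits in every library gave whole tags within a relative error of 1e-05. Depth limits precision: the weakest listed summits had 6 to 9 tags, and the absence of a peak says only that the caller's threshold was not reached. Peaks of the 8 lists were merged into regions. A promoter region had its strongest summit within 1 kb of a TSS of a protein-coding or lncRNA transcript (GENCODE annotation, GRCm38). Scaled tags are tags plus 0.5, multiplied by a factor per library that makes the medians of the libraries equal. Log2 values of regions with a peak in all 8 libraries were compared with limma 3.58.1 (R 4.3.3, trended prior variance, two-sided), Benjamini-Hochberg adjusted over all 47499 regions and called under 0.05. Every adjusted p in the text comes from this fit or from its alternatives. The code was first tested on simulated data. There 100 of 47499 regions were changed at each size. The fit called 50% of those changed by a log2 of 0.5 and 96% of those changed by a log2 of 1. Far more regions were called in the data (3337 lower and 2759 higher), so these shares need not hold there. Small changes may still be missed. Motifs, sequences and other tables were made with Python 3.11.15 from the RefSeq GRCm38 genome. The tags a library without a peak would have needed were estimated from the local background in libraries with one, adjusted for depth.

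Values per library were given for the 12 largest of the called regions, regions with a peak in 1 genotype alone or with 1 departing library, 8 chosen promoters, the strongest promoter and distal region, and promoters with a CLEAR core. The Asah1 and Tfeb intron values, and all neighbouring regions named beside a result, were added after their values were seen. The members, lists and tests were chosen with earlier results of these data known.

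Results on certain items are not reported here.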

Additional observations from a re-analysis of the deposited data

Results flagged for a closer look

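In 6 groups of 4 libraries, of 52 tested, 1 library lay farther from the others than Dixon's limit allows. Chance flags about 1 in 20 such groups.

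WT replicate 4 had 31 scaled tags at the region before Neu1, where the other WT libraries had 13.06 to 15.28. At the region before Atp6v1g1, WT replicate 1_2 had 30.47, against 23.48 to 24.26. At the Mitf region 189 kb from the start, WT replicate 3 had 125.9, against 142.7 to 146. In KO, replicate 1_3 had 349 scaled tags at the Cd68 promoter, against 374.8 to 378.9, and replicate 1_2 had 541.1 at the Npc2 promoter, against 575.4 to 581.1. KO replicate 2 had a peak at 95.45% of the promoter regions, against 93.94% in each of the others, which is a difference of 1 region.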

How the results depend on the processing

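Of the results on summit tags, 6 regions fell and 9 rose. Scaled to background tags, 0 fell and 0 rose. Under quantile normalisation 8 fell and 5 rose, from the sum of all peaks in a region 3 fell and 3 rose, and with replicates 1_2 and 1_3 averaged 4 fell and 2 rose. A pseudocount of 5 tags, a mean of at least 20 tags and a peak in at least 3 libraries of each genotype gave 6 that fell and 9 or 10 that rose. With 1 library left out, 2 to 5 fell and 3 to 14 rose. The cause of these shifts was not tested.

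With the replicate number as a block (replicate block, 6 libraries that share a number), 2 fell and 16 rose; the same 6 libraries without the block, a fit added after seeing the data, gave 2 and 10. The numbers were not taken to pair the samples, as the labels do not say that they do. Libraries of the same number deviated together with correlations of 0.0555, 0.116 and 0.0368. Between different numbers the correlations were -0.0673 to 0.0322, and whether a number marks a shared batch was not tested. Each of the 3 KO libraries with a number shared by WT correlated best with its own number.

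Regions listed in WT alone numbered 2, but 1 with lists of equal length, 1 where a peak had to cover 50% of the strongest peak, 1 with no flank, 5 with 1 library allowed to depart, and 2 or 3 with 1 library left out. The Npc2 region remained under the first pair of settings and the Mitf region with no flank. At a −log10 q of at least 5 the number was again 2, with the Scarb2 region 41.2 kb from the start in place of the Mitf region. Regions listed in KO alone numbered 0, but 1 (Cd63) with 1 library allowed to depart, and 0 to 1 with a library left out (1 without WT replicate 3). The difference in the share of regions with a peak was -2.65 to -0.126 percentage points at promoters and -7.9 to -3.17 at distal regions with 1 library left out, below 0 throughout.

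Depth limits what can be read: the tags are recovered from peak summits and not counted from reads. Regions without a peak in some library have no tag value there. In the simulated data the fit called 50% of the regions changed by a log2 of 0.5. A region that was not called is therefore not shown to be unchanged.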
